A study of Mus musculus with 4 samples.

Results

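Integrins, collagens and laminins, the receptors and scaffold proteins through which a cell holds its surroundings, were compared between B16F10 mouse melanoma cells with lowered lamin A/C and their controls. The genes were chosen by symbol: every row of the deposited gene table named as a numbered integrin alpha or beta chain, Itgav, a collagen chain or a laminin chain, together with 6 matrix glycoproteins, namely Fn1, Sparc, Thbs1, Nid1, Spp1 and Tnc. This gave 87 of 24421 genes. Of these, 83 were genes of the families themselves and 4 (Col4a3bp, Itgb1bp1, Itgb1bp2 and Itgb3bp) carried a family symbol only because their products bind a family member or were first described as doing so. Integrin alpha chains named by a letter instead of a number, such as the leukocyte chain Itgal, were outside the rule, apart from Itgav.

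The series held 4 bulk libraries from B16F10, a metastatic melanoma line of C57BL/6 origin. Both groups had been stably transduced with lentivirus and were kept under puromycin: shControl (n = 2) carried the control vector, which the study's resource list gives as an empty vector, and shLmna (n = 2) carried a short hairpin RNA that targets Lmna, which encodes both A-type lamins. The control is therefore not a hairpin control, only 1 hairpin against Lmna was profiled, and no rescue was included. RNA was read by MARS-seq, which tags the 3′ end of each polyadenylated transcript, so that a count is not scaled by transcript length and isoforms sharing a 3′ end are not separated. The labels do not say whether replicates came from separate cultures, and p-values then measure only the spread between these libraries, which may be technical.

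Integrins are receptors made of 1 alpha and 1 beta chain, which pair inside the cell and bind matrix proteins outside it. Laminin trimers of an alpha, a beta and a gamma chain and the network-forming type IV collagen are the main polymers of basement membranes, whereas fibrillar collagens build the interstitial matrix. In melanoma, integrins, fibronectin, osteopontin and SPARC are known for their roles in adhesion and invasion, and lamin A/C is coupled to the adhesion machinery through the cytoskeleton.

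The 4 libraries held between 2494880 and 3808843 counts, and between 11562 and 12395 genes had at least 1 count. Lmna itself had 875 and 719 CPM (counts scaled to library size and, by the TMM method, to composition) in shControl and 131 and 131 CPM in shLmna, a log2 fold change of -2.61 ± 0.14 (SE, adjusted p = 7.9e-06). Here and below, fold changes are shLmna against shControl from edgeR's quasi-likelihood test, with Benjamini-Hochberg adjustment over the 9150 genes with enough counts to test. Melanocyte lineage markers summed to between 20766 and 25513 CPM, although Tyr, the tyrosinase gene, had at most 7 counts in a library. Within that list Sox10 fell (log2 fold change -0.89), whereas Pmel (0.41) and Mlana (0.51) rose. Marker sums of other cell types were between 0 and 1.34 CPM for endothelium, 0.268 and 0.817 for epithelium, 6.27 and 10.4 for fibroblasts and 11.1 and 16.4 for leukocytes, the last mostly Cd68, and Cdh5, Kdr, Emcn, Epcam, Krt14, Krt5, Dcn, Lum, Thy1, Ptprc and Cd3e were at 0. In bulk RNA, fewer cells that express a gene and less RNA per cell cannot be told apart.

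Matrix and receptor genes passed the test at shares somewhat below those of all tested genes, a difference of few genes that was not tested. Of the 87 genes, 23 had no count in any library, 31 were counted but too low to test, and 33 were tested. Lamb2 and Itgb5 fell and Itga6 rose; the other 30 did not pass an adjusted p of 0.05. The 2 genes that fell were 6.06% of those tested, where 9.74% of all tested genes fell, and the 1 that rose was 3.03%, where 5.48% of all tested genes rose. Under the 3 limits of the study (adjusted p under 0.05, log2 fold change over 1 in size and mean normalized count over 5), Itgb5 alone was lower and 0 genes were higher, where 5.88% and 1.76% of all tested genes were. Itgb5 was only just past the limit of 1, with a log2 fold change of -1.02. Over 14 alternatives that value lay between -1.28 and -0.24, so that some put it inside the limit. Before adjustment, 11 of the 33 had a p under 0.05, as did 30.1% of all tested genes. DESeq2 called 1 gene lower (Lamb2) and 0 higher, where it called 6.63% and 2.58% of all tested genes.

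The fold changes of the 33 genes lay below zero more often than above it. There were 24 negative and 9 positive values, with a median log2 fold change of -0.27 (quartiles -0.70 and 0.07), beside a median of -0.0011 over all tested genes. In 16 genes both shLmna libraries were below both shControl libraries and in 6 both were above, where 30.6% and 29.5% of all tested genes showed these patterns. Of the 33 genes, 2 (Col1a2 and Spp1) passed the filter on low counts only through shControl and 1, Thbs1, only through shLmna. Over the whole transcriptome 339 of the 9150 tested genes had a log2 fold change below -2 and 48 above 2. Of the 33 genes, 0 lay beyond either limit, with extremes of -1.78 (Spp1) and 1.30 (Thbs1). At shares that small few or none of 33 genes would lie there, so this does not show a narrower range.

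**Figure D1:**
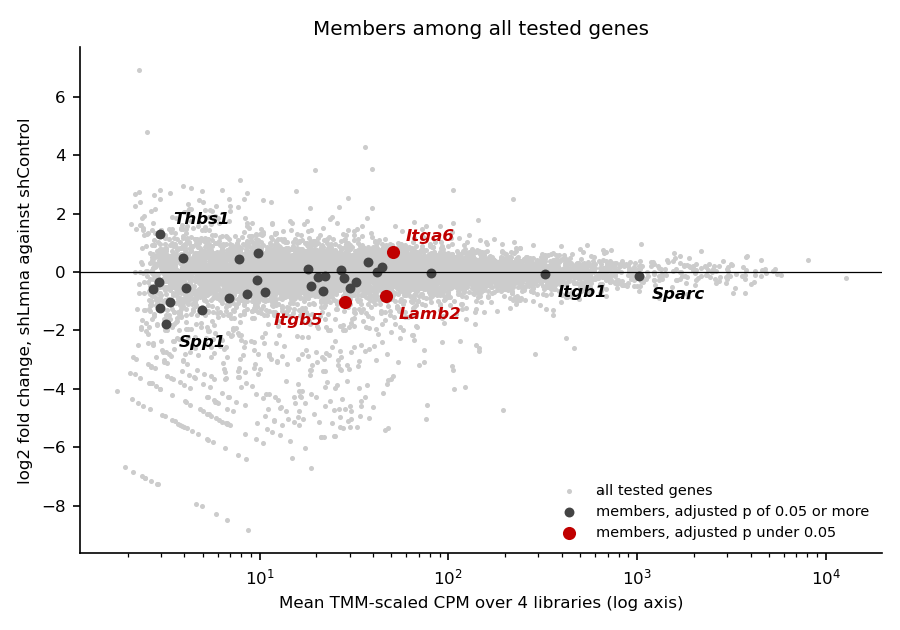
Log2 fold change (shLmna against shControl) against mean TMM-scaled CPM over the 4 libraries on a log axis, for the 9150 tested genes (grey), the 30 matrix and receptor genes that did not pass the test (black) and the 3 that did (red). The black and red points lie between -1.78 and 1.30, and the far more numerous grey points reach further, mostly downward.

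Integrin beta chains were led by Itgb1, the common partner of many alpha chains and the main integrin beta subunit counted in these cells. Itgb1 had 331 and 340 CPM in shControl and 322 and 313 CPM in shLmna. The groups did not overlap, but the difference was small (log2 fold change -0.08 ± 0.12 SE, 95% interval -0.34 to 0.18, adjusted p = 0.693). Itgb3, the beta chain of a vitronectin receptor formed with Itgav, had 34.7 and 25.4 CPM in shControl and 28.1 and 24.2 CPM in shLmna. These groups overlapped, and the log2 fold change of -0.20 did not pass the test (adjusted p = 0.594).

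Itgb5, the beta chain of another vitronectin receptor that uses Itgav, fell. Its gene lies on chromosome 16 (chr16:33829665-33949338, plus strand, mm10), and reads were counted over the last exonic bases at its 3′ end. It had 98 and 170 counts in shControl against 47 and 69 in shLmna, or 30.4 and 45.5 CPM against 18.6 and 18.8 CPM. Both shLmna libraries were below both controls, and the 2 controls stood further apart than the 2 knockdown libraries. The log2 fold change was -1.02 ± 0.24 (SE, adjusted p = 0.0198), so that the level fell by 50.8%. The call did not hold under DESeq2 (adjusted p = 0.0542), and without shControl 2 the log2 fold change was -0.70 (adjusted p = 0.0721). With either single shLmna library, assumed to vary like the controls, the adjusted p was 0.11 without shLmna 1 and 0.143 without shLmna 2.

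Itgav, an alpha chain that Itgb3 and Itgb5 have in common as a partner, had 30.0 and 23.0 CPM in shControl and 22.9 and 32.1 CPM in shLmna. The groups overlapped and the log2 fold change was 0.07 (95% interval -0.46 to 0.61). The ratio of Itgb5 to Itgav counts within a library was 1.01 and 1.98 in shControl and 0.81 and 0.585 in shLmna, whereas that of Itgb3 to Itgav was 1.15 and 1.10 against 1.22 and 0.754. Ratios of counts between genes depend on how well each 3′ end is captured, so only their movement between libraries is of use, and no test was run on them.

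Itga6, which pairs with Itgb1 or Itgb4 to form laminin receptors, rose. It lies on chromosome 2 (chr2:71745616-71858416, plus strand, mm10) and had the highest mean CPM of the alpha chains. It had 139 and 132 counts in shControl against 166 and 224 in shLmna, or 43.1 and 35.3 CPM against 65.7 and 61.0 CPM. Both shLmna libraries lay above both controls, with a log2 fold change of 0.69 ± 0.17 (SE, adjusted p = 0.0206), a 61.6% higher level. The ratio of Itga6 to Itgb1 counts was 0.13 and 0.104 in shControl and 0.204 and 0.195 in shLmna. DESeq2 did not call it (adjusted p = 0.089), nor did the fits without shControl 2 (0.0589), without shLmna 1 (0.141) or without shLmna 2 (0.114).

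The remaining alpha chains did not pass the test. Itga4, the alpha chain of a fibronectin and VCAM-1 receptor, had 19.8 and 26.5 CPM in shControl and 20.96 and 21.5 CPM in shLmna, with overlapping groups and a log2 fold change of -0.13. Itga5, Itga9 and Itga10 were at low counts and are given without having been in the naming rule: their log2 fold changes were -1.04 (adjusted p = 0.218), 0.46 (0.388) and -0.55 (0.448). Across the 22 integrin genes, 9 were tested, 1 fell and 1 rose, where 9.74% and 5.48% of all tested genes did, and 3 (Itgb2l, Itgb6 and Itgb8) had no count. Itgb4, the partner of Itga6 in hemidesmosomes and also outside the naming rule, was too low to test, at 4 and 35 counts in the controls against 6 and 10. Itga1, Itga2 and Itga11, which are among the alpha chains of collagen receptors, had between 0 and 2 counts in a library.

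**Figure D2:**
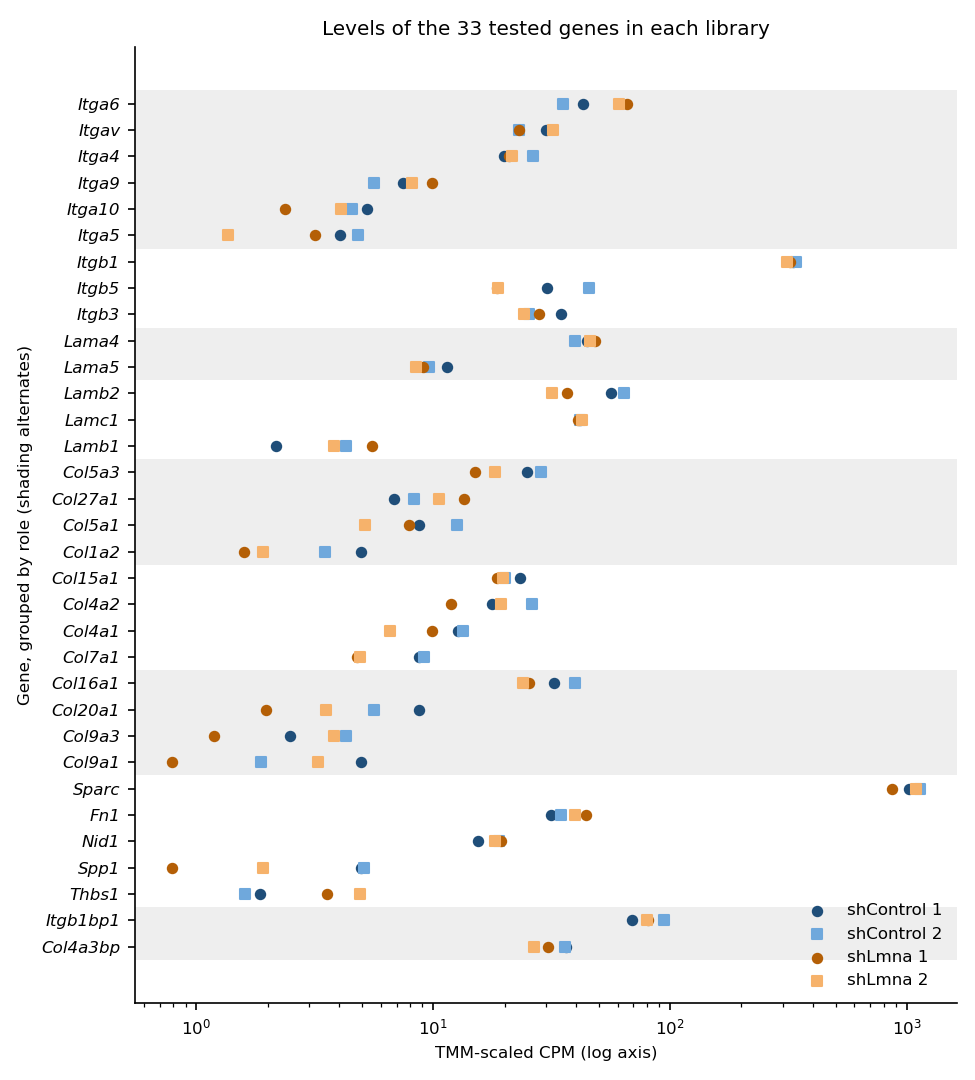
TMM-scaled CPM of the 33 tested genes in each of the 4 libraries on a log axis, grouped by role with alternating shading (from the top: integrin alpha, integrin beta, laminin alpha, laminin beta and gamma, fibrillar collagens, basement membrane and network collagens, other collagens, matrix glycoproteins, and genes named for binding). For Itgb5 and Lamb2 both orange shLmna points lie left of both blue shControl points, for Itga6 they lie right, and for Sparc at 866 to 1131 CPM they overlap.

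Among laminins, 5 of 11 genes were tested. The beta chain Lamb2 fell and no other chain passed the test, where 9.74% of all tested genes fell and 5.48% rose. Lamb2, a beta chain of adult basement membrane laminins, lies on chromosome 9 (chr9:108479736-108490530, plus strand, mm10). It had 181 and 238 counts in shControl against 93 and 116 in shLmna, or 56.1 and 63.7 CPM against 36.8 and 31.6 CPM. Both shLmna libraries were below both controls, with a log2 fold change of -0.82 ± 0.17 (SE, adjusted p = 0.0106), so that the level fell by 43.3%. DESeq2 also called it (adjusted p = 0.0413), and the call was lost only without shLmna 2 among the fits that left out a library (adjusted p = 0.135).

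Lamc1, the gamma chain of most laminin trimers, had 41.8 and 41.8 CPM in shControl and 40.7 and 42.5 CPM in shLmna, a log2 fold change of -0.0040 with a 95% interval from -0.37 to 0.36. The ratio of Lamb2 to Lamc1 counts was thus 1.34 and 1.53 in shControl and 0.903 and 0.744 in shLmna. Lamb1, the alternative beta chain, was low: shControl held 7 and 16 counts, shLmna 14 and 14, and the log2 fold change of 0.48 did not pass the test (adjusted p = 0.553). Lamb2 made up 96.3% (exact 95% binomial interval 92.5 to 98.5) and 93.7% (90.0 to 96.4) of the counts of both beta chains in shControl, and 86.9% (79.0 to 92.7) and 89.2% (82.6 to 94.0) in shLmna. These intervals cover counting error only, and those of the shControl libraries overlap those of the shLmna libraries.

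The 2 tested alpha chains of laminin did not pass the test. Lama4, an alpha chain of vascular and mesenchymal laminins, had 44.6 and 39.6 CPM in shControl and 48.3 and 45.8 CPM in shLmna, a log2 fold change of 0.16 (95% interval -0.21 to 0.53, adjusted p = 0.563). Lama5 had 11.5 and 9.64 CPM against 9.10 and 8.45 CPM, a log2 fold change of -0.27 (95% interval -0.91 to 0.38, adjusted p = 0.581). Lama1, Lamb3 and Lamc3 had no count, and Lama2 and Lama3 had at most 1 count in a library.

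**Figure D3:**
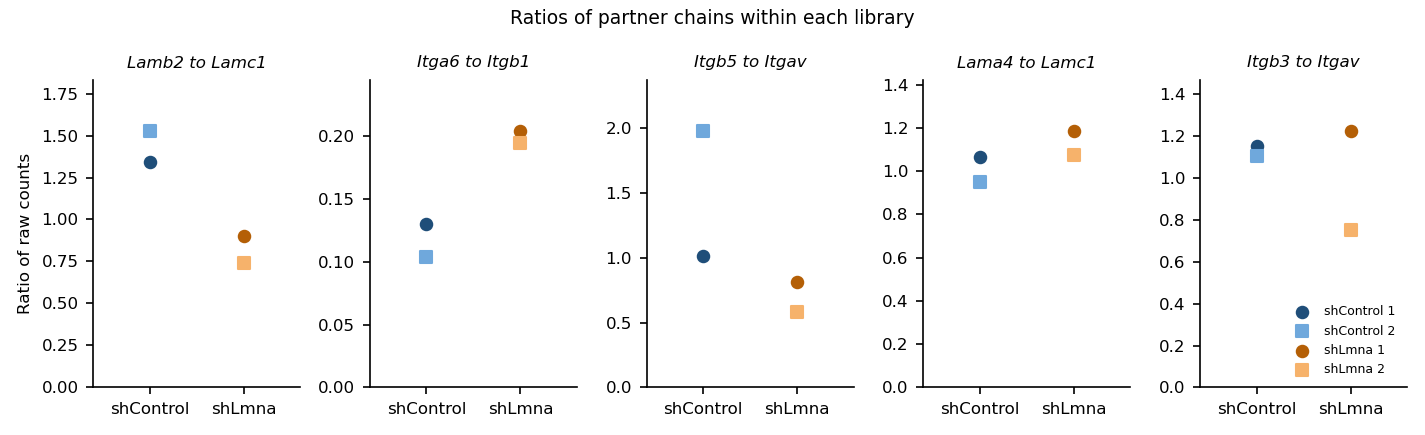
Ratios of raw counts of partner chains within each library, with shControl in blue and shLmna in orange, each vertical axis starting at 0. The ratio of Lamb2 to Lamc1 is lower in both shLmna libraries (0.903 and 0.744) than in both shControl libraries (1.34 and 1.53), that of Itga6 to Itgb1 is higher, and that of Itgb3 to Itgav overlaps.

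The start regions of Lamb2 and Itgb5 are shown because these were the 2 genes that fell. RefSeq promoter windows (250 bases before to 50 after the start, build GRCm38.p6) were found for 63 of the 87 genes. Capitals mark GC boxes (GGGCGG, on either strand) and CCAAT boxes (CCAAT, on either strand). The Lamb2 window (chr9:108479612-108479911, plus strand) held 0 of either, and the Itgb5 window (chr16:33829415-33829714, plus strand) held 3 GC boxes and 0 CCAAT boxes.
Lamb2: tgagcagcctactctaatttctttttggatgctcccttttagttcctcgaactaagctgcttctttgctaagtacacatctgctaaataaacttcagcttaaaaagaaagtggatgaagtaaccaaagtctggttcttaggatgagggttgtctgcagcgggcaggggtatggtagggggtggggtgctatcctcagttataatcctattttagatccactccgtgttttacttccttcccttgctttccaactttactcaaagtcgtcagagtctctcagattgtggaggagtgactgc
Itgb5: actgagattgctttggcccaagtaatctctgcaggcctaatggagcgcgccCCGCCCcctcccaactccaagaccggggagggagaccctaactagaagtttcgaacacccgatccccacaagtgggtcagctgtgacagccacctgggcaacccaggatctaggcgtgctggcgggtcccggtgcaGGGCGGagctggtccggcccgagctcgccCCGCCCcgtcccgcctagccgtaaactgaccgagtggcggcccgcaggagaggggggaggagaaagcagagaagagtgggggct
Of 32851 RefSeq windows of this length, 35.7% held a GC box and 37.4% a CCAAT box. The AP-1 letters TGACTCA and the E-box letters CACGTG, searched on both strands and held by 5.2% and 7.15% of all windows, were in neither window. A match is a description of the sequence and not a binding site, and no match says only that these letters are not in this window.

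Collagen genes gave no call in the main edgeR fit or by DESeq2, although most of those tested had lower values in shLmna. Of 44 collagen genes, 12 were tested and 32 were not, 17 of them without a count in any library. Of the 12, 11 had a negative and 1 a positive log2 fold change, with a median of -0.63 and a range from -1.30 to 0.65. The tallies of lower genes here include Col1a2, which passed the filter on low counts only through shControl. At an unadjusted p under 0.05 there were 6, where 30.1% of all tested genes were. After adjustment over all genes there were 0 by edgeR and 0 by DESeq2. Of all tested genes edgeR called 9.74% lower and 5.48% higher, and DESeq2 6.63% and 2.58%. A limma fit to the authors' batch-corrected log2 values called 19.1% of all tested genes lower and 17.2% higher. Among collagens it called Col16a1, Col1a2, Col4a1, Col4a2, Col4a5, Col5a3 and Col7a1 lower and Col11a2 and Col27a1 higher. The groups did not overlap, with shLmna lower, in 8 of the 12, where 30.6% of all tested genes showed this pattern. The summed level was 49.6 and 57.8 CPM in shControl against 43.9 and 43.3 CPM in shLmna for fibrillar collagens, and 49.6 and 56.5 CPM against 30.5 and 37.6 CPM for the collagens outside the fibrillar and network classes.

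Type IV collagen, the network of basement membranes, was measured through Col4a1 and Col4a2. Col4a1 had 12.7 and 13.4 CPM in shControl and 9.89 and 6.54 CPM in shLmna, a log2 fold change of -0.70 ± 0.30 (SE, adjusted p = 0.153). Col4a2 had 17.7 and 26.2 CPM in shControl and 11.9 and 19.3 CPM in shLmna, and its groups overlapped (log2 fold change -0.47 ± 0.30 SE, adjusted p = 0.326). The ratio of Col4a1 to Col4a2 counts varied between 0.338 and 0.833 over the libraries, with both extremes in shLmna. Col15a1, a basement membrane collagen that also carries glycosaminoglycan chains, had 23.2 and 20.1 CPM in shControl and 18.6 and 19.6 CPM in shLmna (log2 fold change -0.18, adjusted p = 0.643).

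Col4a1 and Col4a2 lie head to head on chromosome 8 (chr8:11198423-11312826 on the minus strand and chr8:11312805-11449287 on the plus strand), and their RefSeq promoter windows share 78 bases. The shared stretch (chr8:11312777-11312854, plus strand) is shown because both transcripts start within it, with its 1 GC box in capitals.
Col4a1 and Col4a2: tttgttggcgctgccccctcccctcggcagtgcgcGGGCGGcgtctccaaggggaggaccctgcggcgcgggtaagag
Both genes had negative values, and neither fold change passed the test.

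Fibrillar collagens were led by Col5a3, a type V chain. Col5a3 had 24.8 and 28.4 CPM in shControl and 15.03 and 18.3 CPM in shLmna, with no overlap and a log2 fold change of -0.67 ± 0.23 (SE, adjusted p = 0.0794). Col5a1, the type V chain that most type V trimers contain, had 8.67 and 12.6 CPM against 7.91 and 5.18 CPM (log2 fold change -0.74, adjusted p = 0.192). Col27a1, a fibrillar collagen of cartilage, went the other way, with 6.81 and 8.30 CPM in shControl and 13.4 and 10.6 CPM in shLmna (log2 fold change 0.65, adjusted p = 0.178). The type I chains were scarce: Col1a2 had 16 and 13 counts in shControl against 4 and 7 in shLmna (log2 fold change -1.23, adjusted p = 0.142), and Col1a1, not tested and outside the naming rule, had 6 and 13 against 2 and 10. Col1a2 passed the filter on low counts only through shControl.

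Other collagens gave 4 tested genes, all with negative values that did not pass the test. Col16a1, a fibril-associated collagen, had 32.2 and 39.6 CPM in shControl and 25.3 and 23.98 CPM in shLmna (log2 fold change -0.55 ± 0.20 SE, adjusted p = 0.101). Col20a1 had 28 and 21 counts in shControl against 5 and 13 in shLmna (log2 fold change -1.30 ± 0.45 SE, adjusted p = 0.0861). Col9a3, a type IX chain, had 8 and 16 counts against 3 and 14, with overlapping groups. Col7a1, Col1a2 and Col9a1 stood outside the naming rule and were added after their values were seen; Col7a1, the anchoring fibril collagen, had 8.67 and 9.10 CPM in shControl and 4.75 and 4.90 CPM in shLmna (log2 fold change -0.87, adjusted p = 0.112), and Col9a1 had a log2 fold change of -0.59 (adjusted p = 0.613). Col11a2, chosen in the same way and not tested, had 4 and 1 counts in shControl against 12 and 10 in shLmna.

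**Figure D4:**
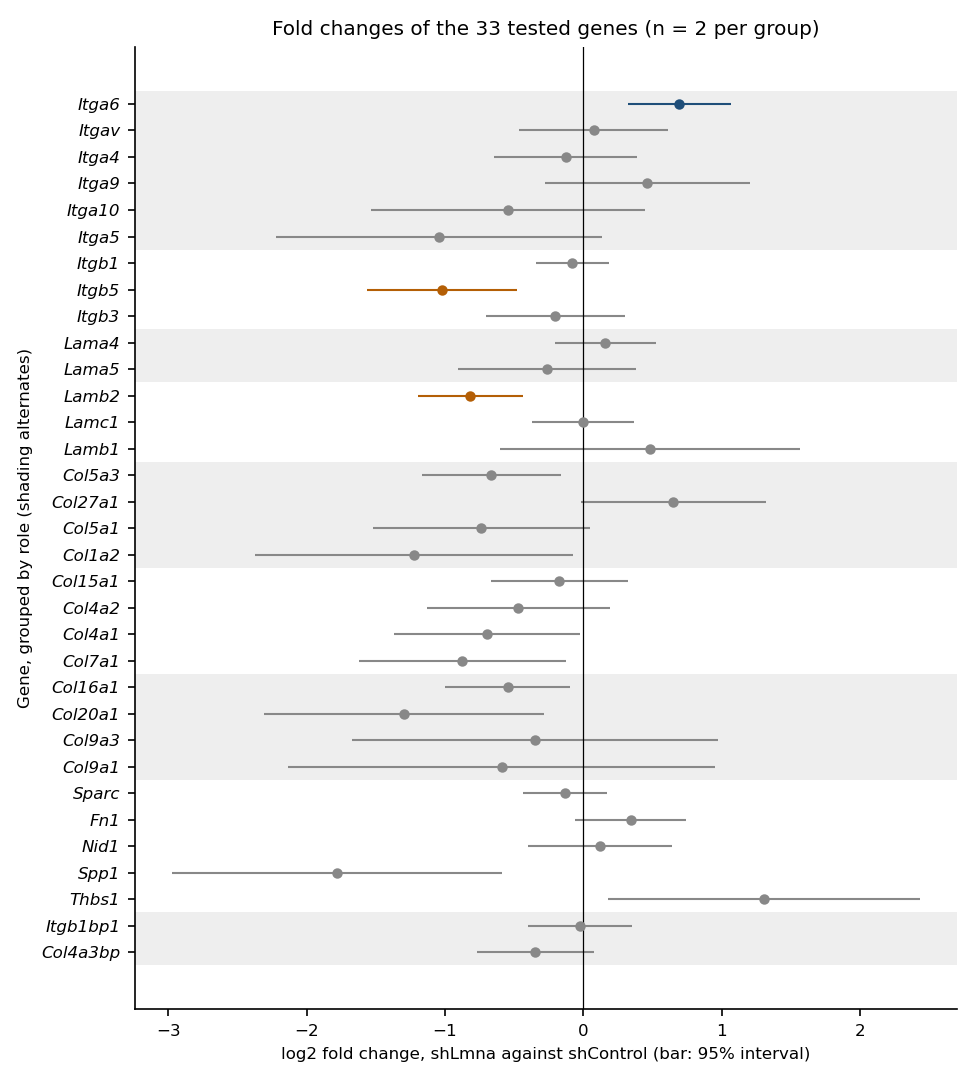
Log2 fold change of the 33 tested genes (points) with its 95% interval from the edgeR fit (bars), grouped by role as in the plot of levels, with genes that fell in orange, genes that rose in blue and all others in grey (n = 2 libraries per group). Of the 12 collagens, 11 have points left of 0, while Lamc1 and Itgb1 sit close to it with narrow bars. Among these 11, Col1a2 passed the filter on low counts only through shControl.

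Of the 6 glycoproteins, 5 were tested and 0 passed by edgeR or DESeq2. Of all tested genes edgeR called 9.74% lower and 5.48% higher, and DESeq2 6.63% and 2.58%. At an unadjusted p under 0.05 there were 2 (Spp1 and Thbs1), where 30.1% of all tested genes were. Each of these 2 passed the filter on low counts only through the group where it was higher. Sparc, a collagen-binding matricellular protein, had 1018 and 1131 CPM in shControl and 866 and 1097 CPM in shLmna. The groups overlapped, with a log2 fold change of -0.13 (95% interval -0.43 to 0.17, adjusted p = 0.563). Sparc alone gave between 51.0% and 57.1% of the counts of the 83 family genes in a library, which together were between 0.172% and 0.203% of all counts, so that sums over the families mostly followed Sparc.

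Fn1, fibronectin, had 31.3 and 34.5 CPM in shControl and 44.3 and 39.5 CPM in shLmna. Both shLmna libraries were higher, but the log2 fold change of 0.34 ± 0.18 (SE) did not pass the test (adjusted p = 0.237). Nid1, which links laminin to type IV collagen, had 15.5 and 19.0 CPM against 19.4 and 18.3 CPM (log2 fold change 0.12, adjusted p = 0.781).

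Spp1, osteopontin, stood just outside the threshold. It had 16 and 19 counts in shControl against 2 and 7 in shLmna, or 4.96 and 5.09 CPM against 0.791 and 1.91 CPM. Both shLmna libraries were lower, and the log2 fold change was -1.78 ± 0.53 (SE, adjusted p = 0.0503). The adjusted p was under 0.05 in 6 of 13 alternatives, from 0.0116 to 0.346, and without shLmna 2 the log2 fold change was -2.59. Thbs1, thrombospondin 1, had 6 and 6 counts in shControl against 9 and 18 in shLmna, with a log2 fold change of 1.30 ± 0.50 (SE, adjusted p = 0.115), and Tnc, tenascin C, had at most 1 count in a library.

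The 4 genes named for binding gave 2 tested genes. Col4a3bp, the ceramide transfer protein, had a log2 fold change of -0.35 (adjusted p = 0.252), and Itgb1bp1, a negative regulator of Itgb1 activation, -0.03 (0.943). Without these 4 genes the tested family genes were 31, with the same 2 lower and 1 higher.

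Adaptors that tie integrins to actin were called at shares near those of all genes. Of 44 focal adhesion and integrin adaptor genes, 37 were tested, 4 fell and 2 rose (10.8% and 5.41%, beside 9.74% and 5.48% over all genes), with a median log2 fold change of -0.05. Vcl, vinculin, which passed the filter on low counts only through shControl, fell from 25 and 60 counts to 2 and 2, a ratio of 18.9 between shControl and shLmna (exact 95% counting interval 7.12 to 70.9, counting error only; adjusted p = 0.0016). Tln1, talin 1, which binds integrin beta tails, had 388 and 448 CPM in shControl and 251 and 310 CPM in shLmna (log2 fold change -0.57, adjusted p = 0.0246), and the call did not hold after a correction for GC content (adjusted p = 0.0508). Ilk, integrin-linked kinase, fell with a log2 fold change of -0.51 (adjusted p = 0.0185), and Src, the adhesion-associated kinase, with -0.65 (0.0174). Tns3, a tensin, rose from 29.7 and 24.4 CPM to 53.4 and 55.6 CPM (log2 fold change 1.01, adjusted p = 0.005), and Dock1, an activator of Rac, rose with 1.08 (0.0167).

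Of 37 genes that make and secrete collagen, 24 were tested, 3 fell and 1 rose (12.5% and 4.17%, beside 9.74% and 5.48% over all genes), with a median log2 fold change of -0.16. Serpinh1, the collagen chaperone HSP47, had 1155 and 1179 CPM in shControl and 886 and 791 CPM in shLmna (log2 fold change -0.48, adjusted p = 0.0204). Adamts14, a procollagen N-proteinase, had 26.6 and 26.5 CPM against 13.8 and 11.2 CPM (log2 fold change -1.10, adjusted p = 0.0117). The lysyl hydroxylases went in opposite directions, Plod3 falling (log2 fold change -0.56, adjusted p = 0.0352) and Plod2 rising (0.83, 0.0227).

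Of 16 matrix receptor genes outside the integrins, 14 were tested, 1 fell and 0 rose (7.14% and 0%, beside 9.74% and 5.48% over all genes). At an unadjusted p under 0.05 there were 2, where 30.1% of all tested genes were. Sdc3, a transmembrane heparan sulfate proteoglycan, had 33.1 and 38.6 CPM in shControl and 22.1 and 19.1 CPM in shLmna (log2 fold change -0.81, adjusted p = 0.0282). The list's median log2 fold change was 0.05, with 4 negative and 10 positive values. Among the 11 genes of the 3 lists that passed the test, DESeq2 did not call Dock1 (adjusted p = 0.0885), Plod3 (0.131), Adamts14 (0.0775) or Sdc3 (0.152). Every call of these lists but that of Vcl was lost in at least 1 of the fits that left out an shLmna library. Vcl had 2 counts in each shLmna library and passed the filter on low counts only through shControl.

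**Figure D5:**
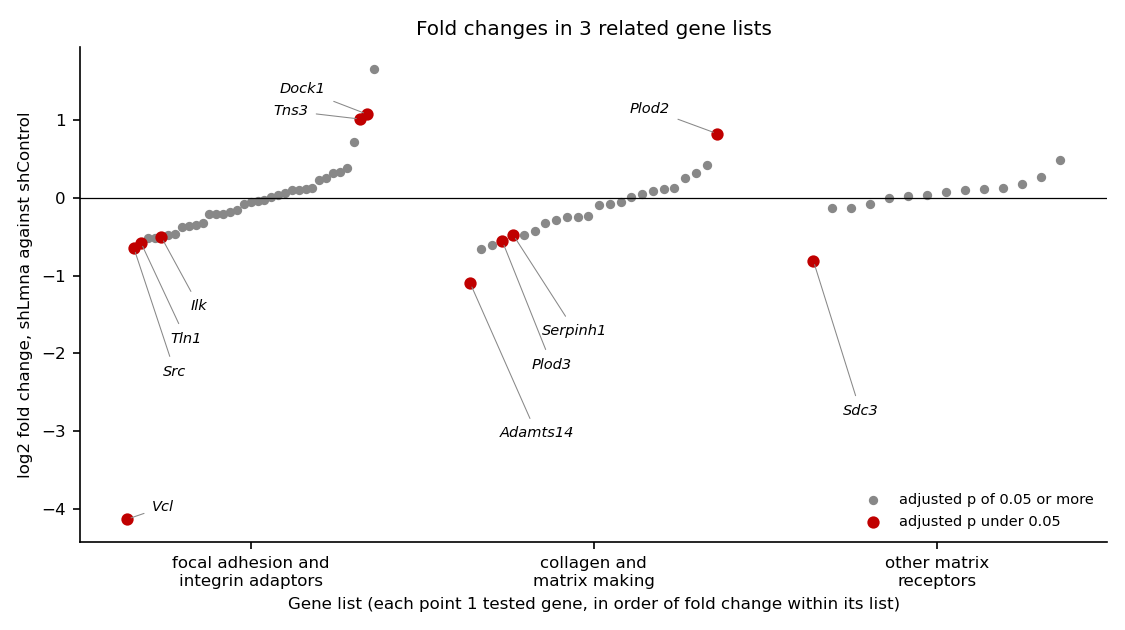
Log2 fold change (shLmna against shControl) of each tested gene in 3 related lists, in order within its list, with genes past the adjusted p of 0.05 in red and named. Vcl, with 2 counts in each shLmna library, lies apart at -4.14, and the other red points lie between -1.10 and 1.08.

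The GC content of the last 1000 transcript bases, where reads were counted, was compared between gene sets without a test. It had a median of 46.9% over all tested genes, 39.8% over those that fell, 42.8% over those that rose and 45.9% over the 33 matrix and receptor genes. Among the 3 genes called here it was 59.2% for Lamb2, 52.7% for Itgb5 and 45.8% for Itga6, and all 3 calls held after a correction for GC content.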

How the data were processed

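The 4 libraries of B16F10 cells, 2 shControl and 2 shLmna, were profiled by MARS-seq. According to the study's methods, the authors trimmed reads with Cutadapt, aligned them to mm10 with STAR (version 2.4.2a in the submitters' processing notes) and counted them with HTSeq over a window of 1000 bases at the 3′ end of each RefSeq gene, extended slightly downstream. The authors deposited raw counts per gene, a normalized signal (counts divided by a DESeq2 size factor), p-values of their own comparison, which were not used, and batch-corrected log2 values, whose batches are not named. The study's methods place counting of molecular identifiers after the marking of duplicates, but which step the raw count matrix came from is not given in the sources used here. Whole counts recovered from the normalized signal that the authors deposited came out whole for 100% of values (within 0.1 of a whole number) and were exceeded by the count matrix 1.08 to 1.09 times.

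Groups and replicate numbers were read from the sample titles. The raw counts were tested with edgeR 4.0.16 in R 4.3.3 (TMM, filterByExpr, quasi-likelihood F test, two-sided, Benjamini-Hochberg over 9150 genes). DESeq2 1.42.0 and limma 3.58.1 on the log2 values served as alternatives, beside other normalizations, filters, a GC correction, a replicate block and leaving out each library. A single gene in 2 against 2 libraries cannot reach an exact permutation p under 0.333. Replicates differed by more than sampling noise (chi-square per degree of freedom 6.96 and 3.91). All 87 genes matched GENCODE vM21 by symbol. A count of 0 allows up to 3 counts, or 0.803 to 1.19 CPM by library. The scripts were tested on simulated data. The members, gene lists and tests were chosen with earlier results of these data known. Genes named are Lmna, members with an adjusted p under 0.05, the 6 glycoproteins, the 3 genes of highest mean CPM in each role, and listed genes with an adjusted p under 0.05; further members were named after their values were seen. The hairpin's target sequence was not analysed here.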

Additional observations from a re-analysis of the deposited data

How the results depend on the processing

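Every alternative kept the direction of Lamb2, Itgb5 and Itga6. The main fit called 2 genes lower and 1 higher of 33 tested. With no filter on low counts there were 4 and 2 of 64 tested (Col20a1, Spp1 and Col11a2 added), where 9.49% and 5.51% of all tested genes were called. DESeq2 gave 1 and 0 of 33 tested, where 6.63% and 2.58% of all tested genes were called. Limma on the batch-corrected log2 values gave 11 and 4 of 42 tested. There fold changes were smaller, and 19.1% and 17.2% of all 10417 tested genes were called lower and higher. Each fit that left out a library kept only 1 library in a group. Log2 fold changes then ran from -0.92 to -0.69 for Lamb2 and from -1.28 to -0.70 for Itgb5. For Itga6 they ran from 0.55 to 0.84. There were no calls without shLmna 2 and Lamb2 alone without shLmna 1, fits that assume the lone shLmna library varies like the controls. Without shControl 1 there were 5 lower and 2 higher, and without shControl 2 there were 2 lower and 0 higher. With the replicate block, 4 of 33 tested were lower (Col5a3 and Spp1 added) and 1 higher, where 13.3% and 9.31% of all tested genes were. Deviations of same-numbered libraries had a correlation of 0.015, so the numbers served only as names. Across all tested genes the lower and higher calls were 891 and 501, and 607 and 236 with DESeq2, 1220 and 852 with the block, 1329 and 775 without shControl 1, 436 and 119 without shLmna 1 and 414 and 89 without shLmna 2. The other scalings, the stricter filter, the GC correction and the recovered counts gave 2 or 3 lower and 1 higher. Over all tested genes these settings called 9.13% to 9.98% lower and 5.51% to 6.24% higher. Signs of the uncalled Sparc, Nid1, Col9a3, Itgav, Itga4, Itgb3 and Lamc1 changed under at least 1 alternative. For each change of call the cause was not tested. The 2 libraries in each group and few counts for most collagens limit what could be called.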
